A study of Mus musculus with 6 samples.

Results

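Trpc6, Pcp4l1 and Gm13986 are 3 genes that were chosen by symbol from the 32285 genes of the deposited matrices, because earlier results of these data had shown them lower in stem and progenitor cells of mice with leukemia. They were measured by droplet single-cell RNA sequencing of LSK cells, that is bone marrow cells that lack lineage markers and carry cKit and Sca1, the fraction that holds hematopoietic stem cells and multipotent progenitors. The recipients were C57BL/6J mice carrying CD45.1, aged 8 to 12 weeks, and all of them were sacrificed at day 21. The 3 PBS libraries come from mice injected with saline alone, and the 3 AML libraries from mice injected with 1000000 C1498 cells, a murine acute myeloid leukemia cell line that carries CD45.2. Sorting for CD45.1 therefore collected host cells, in a model with 1 cell line and transplanted rather than native leukemia. Nothing in the sources used here says whether a library pools animals, so the p-values given below measure the spread between libraries. Those for cell cycle phase measure the spread between sums of library and class.

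The authors' table of cells holds 16822 cells, of which 6838, 934 and 4398 belong to PBS replicates 1, 2 and 3, and 693 and 3959 to replicates 1 and 3 of AML. AML replicate 2 has 0 cells there, and AML values below therefore rest on 2 libraries. Kept cells had a median of 4015, 9586 and 4388 UMIs (unique molecular identifiers, the counted molecules) in the PBS libraries, and 2393 and 5910 in the AML libraries. AML replicate 1, the shallowest, also stood apart in its makeup, with 3.32% of its cells in the HSC class and 14.7% in G1, against 13.7% and 49.0% in AML replicate 3. Of the cell barcodes, 6937 occurred in more than 1 library, and 36 did so among kept cells. Without the cells that carry those 36, Trpc6 stood at 39.6 to 44.3 CPM (defined below) in PBS libraries and at 13.4 and 20.8 CPM in AML libraries, close to its levels in all kept cells. Counting also the barcodes outside the table, all 934 kept cells of PBS replicate 2, 10.5 and 39.3% of those of PBS replicates 1 and 3, and 37.2 and 46.8% of those of AML replicates 1 and 3 had a barcode that another library held, most often AML replicate 2. Kit and Ly6a, the genes of cKit and Sca1, and Cd34, a progenitor gene that the gate does not use, were found in each library, and their sum was 377 to 594 CPM with PBS and 485 to 502 CPM with AML.

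Trpc6 encodes a nonselective cation channel of the transient receptor potential canonical family. Such channels open after phospholipase C is activated by a receptor and makes diacylglycerol, and they let calcium and sodium into the cell. Calcium that enters is read by calmodulin, which in turn drives calmodulin-dependent kinases and the phosphatase calcineurin. Pcp4l1 encodes a small protein related to the calmodulin-binding IQ motif protein Pcp4. Gm13986 is a gene annotated without a coding sequence, and no role for it is stated here.

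On the GRCm38 genome, the GENCODE vM21 annotation places Trpc6 (ENSMUSG00000031997) at chromosome 9, 8544142 to 8680741, on the plus strand, with 3 transcripts of 3 to 13 exons. Its far end overlaps the minus-strand long noncoding gene Gm32014 by 36669 bases. Gm32014 held 1 to 22 UMIs per library. Whether counting used strand is not given in the sources at hand. Pcp4l1 (ENSMUSG00000038370) lies at chromosome 1, 171173262 to 171196268, on the minus strand, with 1 transcript of 3 exons, and no annotated gene overlaps it. Gm13986 (ENSMUSG00000087203) covers 253912 bases of chromosome 2, from 117857291 to 118111202, on the minus strand, with 2 transcripts of 3 and 10 exons. It overlaps 4930412B13Rik by 51846 bases and Gm36979 by 1638 bases on the other strand, and the small nuclear RNA gene Gm25308 by 158 bases on its own. 4930412B13Rik had 0 UMIs in each library. Gm13986 starts 674 bases from the start of Thbs1, the gene of the matrix glycoprotein thrombospondin-1, which runs the other way.

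The 250 bases before each annotated start are shown because the 3 genes were chosen as moving together, so that their start regions can be compared. The sequences are RefSeq's on GRCm38.p6, printed 5′ to 3′ on the strand of the gene, with capitals marking an ETS core (AGGAAG, or CTTCCT on the other strand). The windows are chr9:8543892-8544141 for Trpc6, chr1:171196269-171196518 for Pcp4l1 and chr2:118111203-118111452 for Gm13986.
Trpc6: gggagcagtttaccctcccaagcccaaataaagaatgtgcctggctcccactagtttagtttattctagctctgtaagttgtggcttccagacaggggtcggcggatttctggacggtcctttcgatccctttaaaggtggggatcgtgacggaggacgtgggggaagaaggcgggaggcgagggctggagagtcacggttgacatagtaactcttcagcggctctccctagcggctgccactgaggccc
Pcp4l1: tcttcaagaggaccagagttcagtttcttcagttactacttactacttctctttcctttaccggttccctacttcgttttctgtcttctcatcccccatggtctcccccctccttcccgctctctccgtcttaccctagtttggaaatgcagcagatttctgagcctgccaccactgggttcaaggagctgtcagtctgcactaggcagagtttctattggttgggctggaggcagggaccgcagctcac
Gm13986: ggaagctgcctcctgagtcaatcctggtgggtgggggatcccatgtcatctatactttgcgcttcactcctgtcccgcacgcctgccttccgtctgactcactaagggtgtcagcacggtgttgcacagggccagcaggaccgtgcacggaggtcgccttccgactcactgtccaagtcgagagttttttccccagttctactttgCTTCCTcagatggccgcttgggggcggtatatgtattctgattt
A search of 300-base windows, which run 50 bases past the start, used 4 motifs on both strands. The letters were TGTGGT for RUNX factors. They were AGATAA for GATA factors. The ETS core was as above. For the E-box they were CAGCTG. Gm13986 held ETS letters at 2 places, of which 1 lies 44 to 39 bases before the start and 1 past it. Trpc6 and Pcp4l1 held none of the 4 in these windows. ETS letters occur in 35.4% of the 32851 windows of this length in the table, RUNX letters in 16.8%, GATA letters in 11.2% and the E-box in 16.3%. The printed stretches hold 12 CG pairs each for Trpc6 and Gm13986 and 5 for Pcp4l1, where the median over the same 250 bases of all 32851 windows is 6. No searched motif was found in more than 1 of the 3 windows, which says nothing of the factors themselves.

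Over all LSK cells of the PBS libraries, Trpc6 stood at 41.9, 38.9 and 44.2 CPM (UMIs of the gene per 1000000 UMIs of the sum), from 1347, 405 and 1004 UMIs. The mean was 41.7 ± 2.62 CPM (SD, n = 3), a narrow spread. Pcp4l1 stood at 34.2, 38.9 and 26.7 CPM, from 1100, 405 and 607 UMIs, with a mean of 33.3 ± 6.17 CPM (SD, n = 3). Gm13986 stood at 10.4, 6.73 and 14.3 CPM, from 335, 70 and 325 UMIs, and with 10.5 ± 3.78 CPM (SD, n = 3) it varied most among PBS libraries relative to its level.

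Few cells showed any of the genes. A UMI of Trpc6 was seen in 16.2% of cells of PBS replicate 1 (95% Clopper-Pearson interval 15.3 to 17.1%), 28.9% of replicate 2 (26.0 to 31.9%) and 17.9% of replicate 3 (16.8 to 19.1%). The second library had the deepest cells. With each cell thinned to 2000 UMIs, which left out 125 and 80 shallower cells of PBS replicates 1 and 3 and none elsewhere, the shares were 9.19, 8.03 and 9.70%. Thinned shares for Pcp4l1 were 6.64, 8.03 and 5.30%, and for Gm13986 2.56, 1.93 and 3.8%. Of the cells with Trpc6 in PBS replicate 1, 82.1% held a single UMI, and no kept cell of any library held more than 7. These intervals cover counting error only.

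As a reference for free RNA, cluster 6 of the authors' 9 clusters is rich in immunoglobulin transcripts. Its 109 PBS cells, with a median of 9258 UMIs, held 3 UMIs of Trpc6, 2 of Pcp4l1 and 1 of Gm13986. The share of its cells with a UMI was 2.75, 1.83 and 0.917%, against 25.9, 13.6 and 7.11% in cluster 0, whose median cell had 3725 UMIs. Other small clusters gave other shares. They were 2.53, 1.27 and 2.53% in the 79 PBS cells of cluster 7, and 7.14, 10.7 and 0% in the 56 of cluster 8. The level of free RNA was not tested.

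The authors sorted cells into 4 classes, HSC and the multipotent progenitors MPP2, MPP3 and MPP4, by module scores over signature genes. Those lists were not used here, so whether any of the 3 genes helped to set the classes is unknown. HSC are the long-lived stem cells, and MPP2, MPP3 and MPP4 are progenitors biased toward megakaryocyte and erythroid, myeloid, and lymphoid fates. Levels among classes of PBS mice were not themselves used to choose the genes. The choice did use these PBS libraries, and the AML libraries held fewer HSC-class and G1 cells. It could thus favor genes high in such cells, so tests of class and phase are not independent of it. Class levels were tested with edgeR's quasi-likelihood test on 12 sums of library and class, the library as a term, and Benjamini-Hochberg adjustment over 11793 genes.

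Trpc6 was highest in the HSC class. Its level there was 106, 105 and 119 CPM in PBS replicates 1, 2 and 3. It was 29.4, 27.2 and 29.6 CPM in MPP2, and 32.0, 26.9 and 36.2 CPM in MPP4. MPP3 was the least even class, at 27.3 CPM, 5.11 CPM (3 UMIs in 41 cells) and 18.2 CPM. Every HSC value lay above every value of the other classes. On the log2 scale the difference from HSC was -1.70 ± 0.09 (SE) for MPP2, -2.03 ± 0.13 for MPP3 and -1.71 ± 0.09 for MPP4, with edgeR adjusted p of 3.8e-13, 3.9e-11 and 1.2e-12. HSC-class cells carried 15.5 to 16.9% of all UMIs of the PBS libraries but 39.1 to 45.4% of the Trpc6 UMIs. Among the 3 progenitor classes no pair passed the test. MPP4 and MPP2 differed by -0.01 (95% interval -0.22 to 0.20, adjusted p = 0.94), MPP3 and MPP2 by -0.33 (-0.64 to -0.02, adjusted p = 0.14), and MPP4 and MPP3 by 0.32 (0.01 to 0.63, adjusted p = 0.14, edgeR). The last 2 turned in thinned cells (0.085 and -0.010) and passed with no filter (-0.41 and 0.39, adjusted p = 0.026 and 0.035, edgeR). MPP4 against MPP3 also turned in G1 cells (-0.0027), and passed with library-size scaling (0.58, adjusted p = 0.0076) and without PBS replicate 1 (0.76, adjusted p = 0.028, edgeR).

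Gm13986 followed a different order, with HSC and MPP4 high and MPP2 and MPP3 low. It stood at 16.7, 12.0 and 31.8 CPM in HSC and at 14.7, 8.62 and 19.7 CPM in MPP4. In MPP2 it was 4.85, 3.16 and 6.12 CPM, and in MPP3 6.64, 3.40 and 6.68 CPM. Within each library HSC was the highest class, while the ranges of HSC and MPP4 overlapped across libraries. The difference from HSC was -1.84 ± 0.16 for MPP2, -1.45 ± 0.21 for MPP3 and -0.39 ± 0.14 for MPP4 (SE, log2 scale, edgeR adjusted p = 1.4e-09, 7.4e-06 and 0.034). MPP4 was higher than MPP2 by 1.45 ± 0.15 and higher than MPP3 by 1.06 ± 0.21 (adjusted p = 2.4e-08 and 0.00052, edgeR). MPP3 and MPP2 differed by 0.39 (95% interval -0.12 to 0.90, adjusted p = 0.32, edgeR). The small gap between MPP4 and HSC was lost in 6 of the alternative settings, among them without PBS replicate 3 (-0.20, adjusted p = 0.57). In cells called G1 only, the gap between MPP2 and HSC was -0.69 (adjusted p = 0.24, edgeR), and MPP4 exceeded MPP2 by 0.42 and MPP3 by 0.67, neither past the threshold (adjusted p = 0.51 and 0.13). The difference between MPP4 and MPP3 also missed it in thinned cells (0.79, adjusted p = 0.072).

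Pcp4l1 differed less between the classes than the other two genes in this fit. It stood at 32.4, 41.1 and 36.6 CPM in HSC, 29.1, 30.1 and 24.5 CPM in MPP2, and 40.8, 47.4 and 29.7 CPM in MPP4. In MPP3 the libraries disagreed most, at 32.7, 37.4 and 13.7 CPM. Against HSC the log2 differences were -0.14 (95% interval -0.42 to 0.15) for MPP2, -0.11 (-0.48 to 0.26) for MPP3 and 0.16 (-0.12 to 0.43) for MPP4, with edgeR adjusted p of 0.42, 0.68 and 0.42. These intervals leave out a difference of the size seen for Trpc6. Of the 6 pairs of classes, MPP4 against MPP2 passed, at 0.30 ± 0.12 (SE, adjusted p = 0.038, edgeR), but not in G1 cells (0.12, adjusted p = 0.87). It was also lost without PBS replicate 1 (0.30, adjusted p = 0.16) or replicate 2 (0.21, adjusted p = 0.17), and with DESeq2 (0.30, adjusted p = 0.29). Scaled to library size alone, the medians of all genes moved to -0.27 for MPP2 and -0.34 for MPP3 against HSC, and Pcp4l1, at -0.37 and -0.44, then passed (adjusted p = 0.027 and 0.045, edgeR), while Trpc6 and Gm13986 stayed lower in both. MPP2 against HSC also passed in thinned cells (-0.43, adjusted p = 0.036, edgeR) and was 0.10 in G1 cells (adjusted p = 0.91), and MPP3 against HSC was -0.51 without PBS replicate 1 and 0.27 without PBS replicate 3 (adjusted p = 0.19 and 0.27, edgeR).

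In all, 2 of the 3 genes were called lower in each progenitor class than in HSC. Over all genes tested, 25.5% were called lower in MPP2, 15.7% in MPP3 and 13.4% in MPP4. With library-size scaling, 73.4% of the calls between MPP2 and HSC were lower in place of 49.4%, and 83.1% in place of 43.7% for MPP3. For MPP4, 60.9% were lower in place of 47.9%. Called higher in MPP4 were 2 of the 3 genes against MPP2, beside 21.7% of all genes, and 1 of the 3 against MPP3, beside 8.3%.

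**Figure D1:**
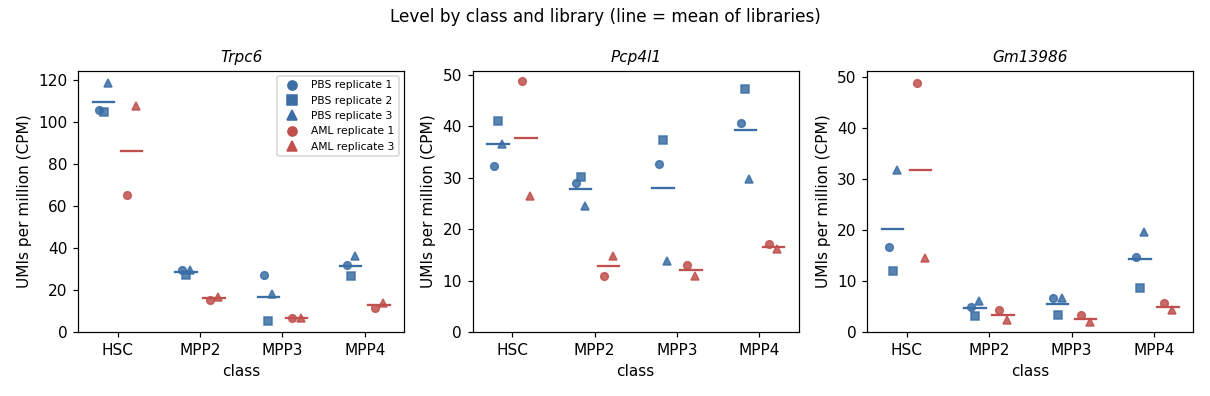
Level of each gene, in CPM, in the 4 classes of cells, with a point for each library and a line at the mean of the PBS (blue) or AML (red) libraries. Trpc6 in HSC lies above 100 CPM in every PBS library, Pcp4l1 means lie between 27.9 and 39.3 CPM over the PBS classes, and Gm13986 is higher in HSC and MPP4 than in MPP2 and MPP3. AML replicate 1 in HSC rests on 23 cells.

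The cell cycle phase, as the authors called it, gave a second axis. Levels by phase were not themselves used to choose the genes, but the AML libraries held fewer G1 cells. The choice could thus favor genes high in G1. In PBS libraries, Trpc6 was 60.7, 53.6 and 67.4 CPM in cells called G1, 29.3, 26.7 and 26.6 CPM in S, and 27.1, 28.2 and 29.0 CPM in G2M. The G1 values lay above all S and G2M values. Gm13986 was 18.5, 10.7 and 25.5 CPM in G1, 4.32, 4.83 and 6.43 CPM in S, and 4.75, 2.20 and 6.46 CPM in G2M, again without overlap. Pcp4l1 was 41.5, 44.4 and 32.8 CPM in G1, 27.9, 30.6 and 20.9 CPM in S, and 30.1, 39.2 and 23.9 CPM in G2M, with every G1 value above every S value and G2M overlapping both.

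Since classes differ in phase, phases were compared within library and class, over 29 sums and 9637 genes in edgeR. Classes of the same library entered as separate blocks. The p-values for phase therefore measure the spread among such sums, which are not independent libraries. From G1 to S, Gm13986 was lower by -1.54 ± 0.17, Trpc6 by -0.77 ± 0.11 and Pcp4l1 by -0.49 ± 0.10 on the log2 scale (SE, adjusted p = 7.0e-10, 1.8e-07 and 5.9e-05, edgeR). From G1 to G2M, the differences were -1.38 ± 0.21, -0.66 ± 0.14 and -0.29 ± 0.12 (adjusted p = 1.7e-06, 0.00019 and 0.044, edgeR). All 3 genes were thus called lower in cells that the authors called S or G2M, beside 26.1% of all genes for S and 17.7% for G2M. Phases differed in depth, with a median of 3202, 5352 and 6619 UMIs in G1, S and G2M of PBS replicate 1. In thinned cells S minus G1 was -0.86 for Trpc6 and -0.78 for Pcp4l1 (adjusted p = 2.9e-07 and 2.7e-05, edgeR), while Gm13986 fell below the filter. The G2M call for Trpc6 was lost without PBS replicate 1 (-0.58, adjusted p = 0.078), and that for Pcp4l1 without PBS replicate 1 or 3 (-0.28 and -0.22, adjusted p = 0.37 and 0.24, edgeR). The Pcp4l1 call was also lost with DESeq2 (-0.28, adjusted p = 0.13) and, in edgeR, with no filter (-0.30, adjusted p = 0.077) and in thinned cells (-0.47, adjusted p = 0.058). None of the 3 genes passed the test between G2M and S, at 0.11 ± 0.13 for Trpc6, 0.19 ± 0.11 for Pcp4l1 and 0.16 ± 0.23 for Gm13986 (SE, adjusted p = 0.54, 0.17 and 0.62, edgeR).

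**Figure D2:**
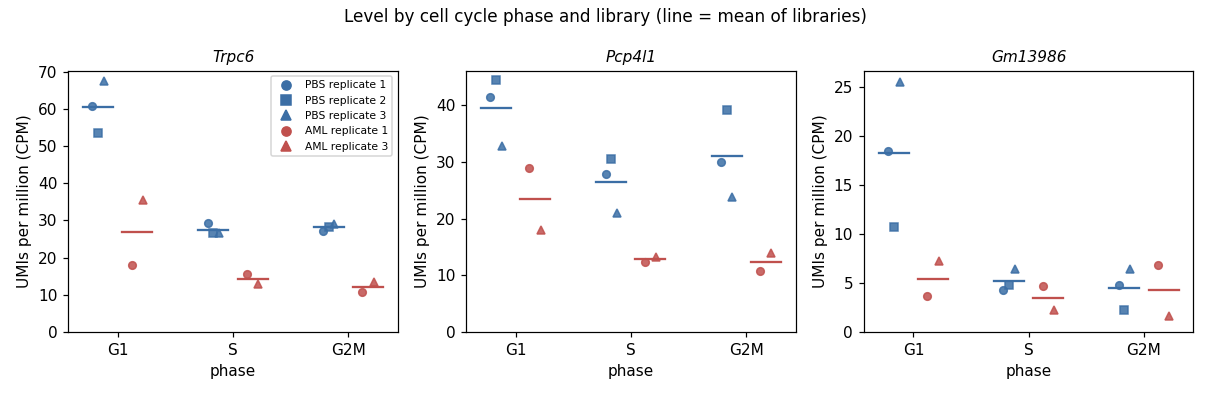
Level of each gene, in CPM, by the authors' cell cycle phase, with a point for each library and a line at the mean of the PBS (blue) or AML (red) libraries. In PBS libraries G1 stands highest for Trpc6, at 53.6 to 67.4 CPM, and for Gm13986, at 10.7 to 25.5 CPM, above every S and G2M value.

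The authors' clusters were built from the expression of the same cells, so levels in them are a description. Trpc6 was highest in cluster 0, where the PBS libraries stood at 70.1, 72.7 and 81.7 CPM, and next highest in cluster 5, at 53.4 CPM pooled over 270 PBS cells. It was almost missing from cluster 4, with 14 UMIs in 370 PBS cells or 4.64 CPM. Pcp4l1 was present across clusters 0 to 5 of the PBS libraries, at 22.5 to 41.3 CPM pooled, with the most in cluster 1. In cluster 4, where Trpc6 was so low, Pcp4l1 stood at 28.1, 38.1 and 12.4 CPM. In the 56 PBS cells of cluster 8 it stood at 30.3 CPM pooled, from 8 UMIs. Gm13986 was highest in cluster 0, at 14.3, 13.4 and 26.1 CPM, and stood at 9.48 and 11.3 CPM pooled in clusters 1 and 2. It had 2 UMIs in the 270 PBS cells of cluster 5, so that cluster 5 held Trpc6 but hardly Gm13986.

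**Figure D3:**
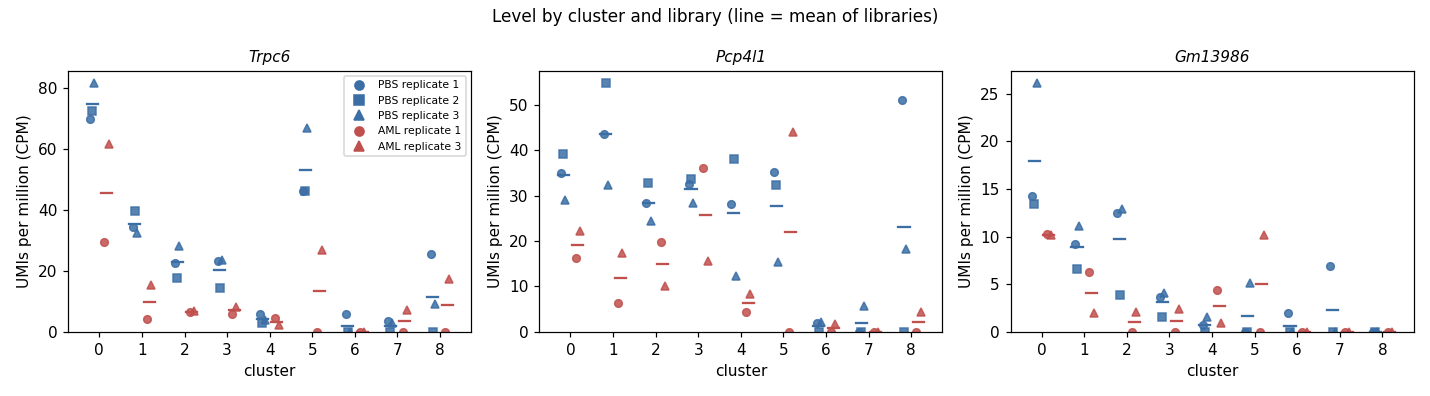
Level of each gene, in CPM, in the authors' clusters 0 to 8, with a point for each library and a line at the mean of the PBS (blue) or AML (red) libraries. Trpc6 is high in clusters 0 and 5 and low in cluster 4, Pcp4l1 spreads over clusters 0 to 5, and Gm13986 leads in cluster 0. Clusters 6 to 8 hold few cells, and their values rest on 0 to 6 UMIs per library.

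Over the 12 PBS sums of library and class, the log2 CPM of Trpc6 and Gm13986 correlated at Pearson r = 0.66, while Pcp4l1 gave r = -0.21 with Trpc6 and -0.08 with Gm13986. These sums share libraries and depth, and the values are descriptions. Among 8355 other genes with a mean log2 CPM of at least 3, those most like Trpc6 were Meis1 (r = 0.978), Nfia, Tbxas1, Akap7 and Samd12 (r = 0.973). Meis1, a homeobox cofactor of stem cells, had a mean of 385 CPM in HSC and 108 CPM in MPP3 of the PBS libraries. Tbxas1, thromboxane synthase, had 132 and 22.6 CPM. Those most like Pcp4l1 were Cep120 (r = 0.946), Nelfb, Trim13, Adck1 and Tmem127 (r = 0.892). Those most like Gm13986 were Phf21a (r = 0.953), Zfp950, Stat5b, Kcnq1ot1 and Tut7 (r = 0.934). Stat5b, a transcription factor downstream of cytokine receptors, had 51.6 CPM in HSC, 45.1 in MPP4, 32.9 in MPP2 and 31.8 in MPP3, the order of Gm13986 for the upper 2 classes. Thbs1, whose start faces that of Gm13986, stood at 4.02 CPM in HSC, 6.26 in MPP4, 1.89 in MPP3 and 0.99 in MPP2, from 16 to 118 UMIs per PBS library.

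In single cells the genes rarely met. In PBS replicate 1 thinned to 2000 UMIs, 31 cells held both Trpc6 and Gm13986, where 15.8 would be met if the genes were spread independently over cells. The same counts were 34 and 15.9 in PBS replicate 3, and 4 and 1.45 in replicate 2. For Trpc6 and Pcp4l1 they were 40 and 41.0, 18 and 22.2, and 4 and 6.02 in replicates 1, 3 and 2. Within the HSC class the counts for Trpc6 and Gm13986 were 14 and 9.35 in replicate 1, 22 and 14.2 in replicate 3, and 3 and 1.24 in replicate 2. These are descriptions without a test. The 3 genes were seen together in 2 thinned cells of PBS replicate 1 and 3 of replicate 3.

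The contrast of AML with PBS is the one that the genes were chosen on, so its values are given as a description without a test. Over all LSK cells Trpc6 stood at 13.4 CPM in AML replicate 1 (26 UMIs) and 20.8 CPM in AML replicate 3 (575 UMIs), against 38.9 to 44.2 CPM in PBS libraries. Pcp4l1 stood at 13.9 CPM (27 UMIs) and 15.1 CPM (417 UMIs), against 26.7 to 38.9 CPM. Gm13986 stood at 5.65 CPM (11 UMIs) and 3.77 CPM (104 UMIs), against 6.73 to 14.3 CPM. Both AML libraries lay below all PBS libraries for 3 of the 3 genes, as they did for 13.7% of the 14364 genes tested. Fitted by edgeR, the log2 differences were -1.24 ± 0.25 for Trpc6, -1.20 ± 0.24 for Pcp4l1 and -1.38 ± 0.37 for Gm13986 (SE, 3 against 2 libraries). Of all genes tested, 0.00696% were called lower in AML and 0.153% higher. The number of calls rested on single libraries, since without AML replicate 3 it was 140 lower and 279 higher genes, and without PBS replicate 1 it was 1 higher gene.

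**Figure D4:**
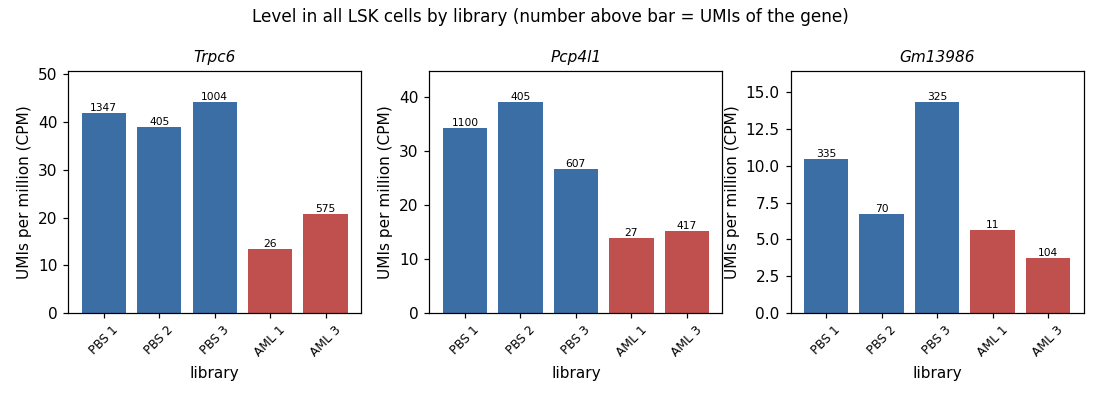
Level of each gene over all LSK cells, in CPM, as a bar for each PBS (blue) and AML (red) library, with the UMIs of the gene above the bar. For each of the 3 genes both AML bars are lower than the 3 PBS bars, and those of AML replicate 1 rest on 11 to 27 UMIs.

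Thinned to 2000 UMIs per cell, the share of cells with Trpc6 was 2.31 and 5.38% in AML replicates 1 and 3, against 8.03 to 9.70% in PBS libraries. Unthinned, it was 3.32 and 11.3%, against 16.2 to 28.9%. Thinned shares of Pcp4l1 were 2.74 and 3.26%, against 5.30 to 8.03%, and unthinned 3.46 and 9.14%, against 12.2 to 31.5%. For Gm13986 they were 1.01 and 0.99%, against 1.93 to 3.8%, and unthinned 1.44 and 2.37%, against 4.42 to 6.41%. The AML shares thus stayed lower for each gene at equal depth.

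Within the classes the counts of AML replicate 1 were small. Trpc6 in HSC was 107.6 CPM in AML replicate 3 (252 UMIs in 542 cells), within the PBS range of 105 to 119 CPM, and 65.3 CPM in AML replicate 1, from 4 UMIs in 23 cells. In G1 cells of the HSC class it was 113 CPM in AML replicate 3 and 117 CPM in AML replicate 1 (4 UMIs in 13 cells), against 107.7 to 132.5 CPM. Pcp4l1 in HSC was 26.5 CPM in AML replicate 3, below the 32.4 to 41.1 CPM of PBS libraries, and 48.9 CPM in AML replicate 1, from 3 UMIs. Gm13986 in HSC was 14.5 CPM in AML replicate 3, within its PBS range of 12.0 to 31.8 CPM, and 48.9 CPM in AML replicate 1, again from 3 UMIs. The AML replicate 1 values of this class rest on 3 or 4 UMIs. The fitted log2 differences were -0.29 ± 0.28, -0.53 ± 0.32 and -0.51 ± 0.38 (SE) for Trpc6, Pcp4l1 and Gm13986. Without AML replicate 3 they were -1.17, 0.014 and 0.81, and without PBS replicate 3 that of Gm13986 was 0.054. Without AML replicate 1 Trpc6 stood at -0.16.

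Outside HSC the AML libraries were lower in most cases. In MPP4, Trpc6 was 11.4 and 13.8 CPM in AML replicates 1 and 3, against 26.9 to 36.2 CPM. Pcp4l1 was 17.1 and 16.1 CPM, against 29.7 to 47.4 CPM, and Gm13986 5.71 and 4.21 CPM, against 8.62 to 19.7 CPM, so no gene overlapped there. The Gm13986 value of AML replicate 1 is 2 UMIs in 117 cells, where 3 UMIs would give 8.56 CPM, next to the lowest PBS value. In MPP2, Trpc6 was 15.2 and 16.8 CPM against 27.2 to 29.6 CPM, and Pcp4l1 10.9 and 14.7 CPM against 24.5 to 30.1 CPM. Gm13986 overlapped in MPP2, at 4.36 and 2.24 CPM against 3.16 to 6.12 CPM. In MPP3, Trpc6 at 6.50 and 6.61 CPM lay inside the PBS range of 5.11 to 27.3 CPM, whose low end is 3 UMIs. Pcp4l1 in MPP3 was 13 and 11 CPM against 13.7 to 37.4 CPM, and Gm13986 3.25 and 1.85 CPM against 3.40 to 6.68 CPM, with 2 UMIs each in AML replicate 1 and PBS replicate 2. The fitted log2 differences ran from -0.87 to -1.65 for Trpc6, -1.08 to -1.35 for Pcp4l1 and -0.95 to -1.84 for Gm13986 over these 3 classes. For Gm13986 they rested on single libraries, since leaving out AML replicate 3 gave -0.22 in MPP2 and -1.01 in MPP3, and leaving out PBS replicate 3 gave -0.61 in MPP2. Whether the AML difference itself differed between classes was not tested, because that contrast chose the genes.

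**Figure D5:**
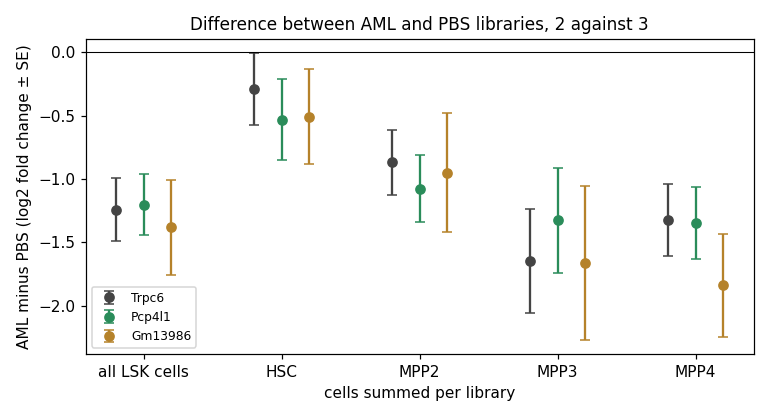
Fitted difference between the 2 AML and the 3 PBS libraries for each gene, as log2 fold change with its SE, over all LSK cells and in each class. Values in HSC run from -0.29 to -0.53 and those in MPP4 from -1.32 to -1.84. They describe the contrast on which the genes were chosen.

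The makeup of the libraries moved along with these levels. HSC-class cells were 20.5 to 23.9% of PBS libraries and 3.32 and 13.7% of AML libraries, and G1 cells were 55.9 to 58.2% and 14.7 and 49.0%. MPP3 cells were 4.39 to 11.6% and 32.9 and 22.3%. With the 4 classes given equal weight, the log2 ratio of mean CPM was -0.62 for Trpc6, -0.74 for Pcp4l1 and -0.074 for Gm13986, the last resting on the 3 UMIs in AML replicate 1. Without the HSC class the fitted differences were -1.25, -1.29 and -1.56, and in G1 cells of all classes they were -1.02, -1.12 and -1.52, both settings chosen after seeing the data. In kept cells whose barcode no other library held, Trpc6 stood at 47.0 and 68.1 CPM in PBS replicates 1 and 3 and 13.1 and 40.8 CPM in AML replicates 1 and 3, and PBS replicate 2 had no such cell. In kept cells with a shared barcode it stood at 22.6, 38.9 and 27.3 CPM in PBS replicates 1, 2 and 3 and 13.6 and 11.4 CPM in AML replicates 1 and 3. In AML replicate 3 the shared ones were deeper, with a median of 9237.5 against 4172 UMIs, and held 3.56% HSC-class cells against 22.6%. The log2 ratio of mean CPM over unshared cells, a setting also chosen after seeing the data, was -1.10 for Trpc6, -1.19 for Pcp4l1 and -1.38 for Gm13986. The part of barcode sharing in these levels was not tested. In single-cell sums, fewer molecules per expressing cell and fewer expressing cells cannot be told apart at these counts.

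The other genes of the channel's pathway came from lists that were chosen with earlier results of these data known. Of the other TRPC channels, 5 are in the features, and together they summed to 0.38 to 1.03 CPM in PBS libraries and 0.94 to 6.17 CPM in AML libraries. Trpc1 was the 1 channel that could be tested (-0.34 ± 0.68). Trpc6 thus gave more UMIs in PBS cells than those 5 summed. Without the filter on low counts, Trpc4 was called higher in AML, but its counts fell below that filter in the main fit and it was at 0 in at least 1 library.

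Upstream of the channel, 0 of 18 tested genes of receptor-coupled G proteins, phospholipase C, diacylglycerol kinases and inositol trisphosphate receptors were called in either direction by edgeR, and 2 had an unadjusted p below 0.05. That was the case for 10.5% of all genes tested, the share to set beside each such count here. The median log2 difference of the list was 0.23, beside -0.03 over all genes tested. The list summed to 322 to 431 CPM in PBS libraries and 476 to 498 CPM in AML libraries. Both AML libraries lay above all PBS libraries for 8 of the 18 genes, beside 16% of all genes tested. They lay below for 1, beside 13.7%. Plcg2, a phospholipase C, stood at 76.6 and 85.2 CPM in AML against 57.7 to 74.7 CPM in PBS libraries (0.30 ± 0.23). Itpr1, which releases calcium from stores, stood at 92.5 and 80.9 CPM against 40.4 to 60.9 CPM (0.67 ± 0.24, adjusted p = 0.35, edgeR). Gnaq, the G protein that couples receptors to phospholipase C, stood at 73.5 and 67.2 CPM against 46.5 to 68.1 CPM. DESeq2 called none of this list or the next. Store-operated entry, the other route for calcium, had 0 of 10 genes called and 1 with an unadjusted p below 0.05, and a median of 0.15. Both AML libraries lay above all PBS libraries for 4 of these 10 genes and below for 0, beside the same shares of all genes. Orai1, its pore, stood at 57.6 and 70.4 CPM against 65.5 to 95.4 CPM. Saraf, which inactivates such entry, stood at 41.1 and 42.7 CPM against 39.1 to 67.2 CPM, and the plasma membrane calcium pump Atp2b4 at 55.5 and 56.3 CPM against 42.2 to 51.0 CPM.

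Downstream, 0 of 4 tested genes of calmodulin and its small IQ binding proteins were called by edgeR, with 1 unadjusted p below 0.05 and a median of -0.20. That gene was Nrgn, neurogranin, which like Pcp4l1 belongs to the small IQ proteins. It stood at 123 and 213 CPM in AML against 358, 321 and 325 CPM in PBS libraries, without overlap (-1.01 ± 0.28, adjusted p = 0.22, edgeR), and was called lower by DESeq2, without the filter on low counts and without AML replicate 3. Calm2, a calmodulin gene, stood at 444 and 497 CPM against 539 to 870 CPM. Calmodulin-dependent kinases had 0 of 9 called and 1 with an unadjusted p below 0.05, and a median of 0.15. Camk1d stood at 79.7 and 99.1 CPM against 56.8 to 92.7 CPM, Camk2d at 43.2 and 48.1 CPM against 42.9 to 48.2 CPM, and Camk1 at 17.5 and 35.1 CPM against 34.3 to 49.7 CPM. Calcineurin and NFAT genes had 0 of 11 called and 0 with an unadjusted p below 0.05, and a median of 0.02. Ppp3ca, a catalytic subunit of calcineurin, stood at 117 and 115 CPM against 77.0 to 114 CPM. Nfatc3 stood at 59.6 and 61.1 CPM against 45.8 to 56.1 CPM, and Ppp3cb at 38.5 and 39.4 CPM against 32.9 to 46.8 CPM. DESeq2 called none of these in either list.

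Markers that move with the 3 genes are given beside them, and their part in the result was not tested. The 10 HSC genes, led by Meis1, Mecom and Hlf, summed to 714 to 786 CPM in PBS libraries and 472 to 540 CPM in AML libraries. None of the 10 was called by edgeR or DESeq2, with 4 unadjusted p below 0.05 and a median of -0.61, and 8 of them lay below every PBS library in both AML libraries, as 13.7% of all genes did. Pdzk1ip1 and Procr were called lower without the filter, with the replicate block and without AML replicate 3. The 9 monocyte and macrophage markers summed to 198 to 209 CPM in PBS libraries and 506 to 597 CPM in AML libraries. Both AML libraries lay above all PBS libraries for 7 of them, as for 16% of all genes tested, and below for 1, Lyz2, at 42.1 and 57.3 CPM against 66.2 to 128 CPM. Of the 8 tested, 4 were called higher by edgeR (F13a1, Irf8, Ly86 and Ms4a6c), beside 0.153% of all genes. Without PBS replicate 1 the count was 0, with 7 unadjusted p below 0.05, and DESeq2 called 5 (Ccr2, Csf1r, Irf8, Ly86 and Ms4a6c). Megakaryocyte and platelet markers summed to 164 to 217 CPM and 126 to 165 CPM, with Gp6 at 0 in all libraries and Ppbp, Gp1ba and Treml1 at 0 in some. Erythroid markers summed to 827 to 1265 CPM and 327 to 644 CPM, with Epor, Hba-a1 and Klf1 among those at 0 in at least 1 library. Neutrophil markers stayed at 2.50 to 19.1 CPM and 3.6 to 6.56 CPM, and mast cell and basophil markers at 27.8 to 69.8 CPM and 22.1 to 48.2 CPM. B cell markers were 78.2 to 90.4 CPM and 54.0 to 89.2 CPM, with Igll1 and Pax5 among those at 0 in at least 1 library. T and NK cell markers were 170 to 190 CPM and 197 to 201 CPM, mostly Nkg7, with Cd3d, Cd3e, Cd3g, Gzma and Trac at 0 in at least 1 library. In these 6 lists edgeR called 0 genes, with unadjusted p below 0.05 (10.5% of all genes) for 5 of 10 megakaryocyte, 3 of 11 erythroid, 3 of 6 neutrophil, 2 of 7 mast cell, 0 of 5 B cell and 1 of 6 T and NK cell genes, and DESeq2 called 1, Car2, lower.

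AML replicate 2 could be seen only through barcodes outside the authors' table. Its 17055 barcodes had a median of 320 UMIs and held 201 UMIs of Trpc6, 191 of Pcp4l1 and 30 of Gm13986, or 28.4, 26.9 and 4.23 CPM. Other libraries held 40.5% of these barcodes, with 36.4% of the UMIs, and Gm13986 stood at 5.81 CPM in those and 3.33 CPM in the rest, from 15 UMIs each. In all barcodes of the PBS libraries the same levels were 37.2 to 41.9, 28.3 to 39.6 and 5.97 to 13.8 CPM. In all barcodes of AML replicates 1 and 3 they were lower than in AML replicate 2 for Trpc6, at 23.6 and 22.4 CPM, and Pcp4l1, at 15.9 and 16.2 CPM, and higher for Gm13986, at 7.63 and 4.41 CPM. Against PBS barcodes outside the table alone, at 29.8 to 35.1, 33.2 to 42.3 and 2.82 to 12.1 CPM, it was lower for Trpc6 and Pcp4l1 and inside the range for Gm13986. With barcodes filtered to at least 1000 genes and at most 10% mitochondrial UMIs, 106 remained, with 4, 6 and 1 UMIs of the 3 genes. With these barcodes in 6 libraries the fitted log2 differences were -1.17 ± 0.24, -1.18 ± 0.23 and -1.16 ± 0.36 (SE). In barcodes that the authors' table leaves out, Trpc6 stood at 26.0 and 28.3 CPM in AML replicates 1 and 3, above the 13.4 and 20.8 CPM of their kept cells, and at 29.8 to 35.1 CPM in PBS libraries. Pcp4l1 stood there at 16.4 and 20.4 CPM against 33.2 to 42.3 CPM. Gm13986 stood at 8.08 and 6.93 CPM, inside the range of the PBS libraries, 2.82 to 12.1 CPM.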

How the data were processed

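The authors sequenced LSK cells of 6 bone marrow libraries with 10x Genomics Chromium GEM V3 chemistry. Per the labels, the deposited counts of UMIs per gene and barcode come from Cell Ranger 7.0.1 on GRCm38 (mm10), and Seurat 4.3.0 was used under R 4.2.2. Whether intronic reads were counted, how cells were filtered and how doublets were handled was not stated in the sources at hand, and no doublets were removed. From the authors' cell table the barcodes, library, class, phase and cluster were used, and 20 other columns were not. For all 16822 cells the table's UMI count equalled the sum in the matrices.

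The 3 genes and the 14 gene lists were chosen with earlier results of these data known. Counts were summed per library, library and class (at least 20 cells), or library, class and phase. CPM is the count per 1000000 UMIs of the sum. Tests used edgeR 4.0.16 under R 4.3.3 (TMM, filterByExpr, quasi-likelihood F test, Benjamini-Hochberg over all genes tested, threshold 0.05), with DESeq2 1.42.0 as an alternative. The labels give the numbers of the libraries only as names, and the main fits had no replicate block. The common biological variation was 5.92% between class sums of PBS libraries and 21% between libraries of the AML comparison, which limits the precision of the latter. Fits were tested on simulated data. Shares of cells carry exact Clopper-Pearson 95% intervals. The genes named besides the 3 were, for each, the 5 most correlated genes over PBS sums. From each list they were the called genes and the 3 with the highest mean CPM, printed for the calcium lists and the HSC genes. Some genes of the lists are not reported here by name. Thbs1, Gm32014, other overlapping genes, Trpc4, Car2, Ccr2, Csf1r, Lyz2, Pdzk1ip1, Procr and genes at 0 were named after their values were seen. Python 3.11.15 with scipy 1.17.1 computed levels and intervals. PBS and AML values were also recomputed in G1 cells, without the HSC class, without clusters 6, 7 and 8, and in cells with unshared barcodes, as alternatives chosen after seeing the data.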

Additional observations from a re-analysis of the deposited data

How the results depend on the processing

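The AML minus PBS differences over all LSK cells kept their direction in each alternative tried for the 3 genes. The replicate block gave -1.36 for Trpc6, -1.06 for Pcp4l1 and -1.60 for Gm13986, with 61 higher and 30 lower calls. Correlations of same-numbered libraries, centered by group, were -0.06 and -0.05. Centering makes the deviations of 2 AML libraries exact opposites, so these values cannot tell whether the numbers pair the libraries. DESeq2 gave 49 and 25 and no filter 227 and 165. Leaving out a library gave 1 to 279 higher and 0 to 140 lower calls, and -1.04 to -1.65 for Trpc6. Where AML replicate 1 or 3 was left out, the lone library was assumed to vary like the others. Equal class weights gave -0.62, -0.74 and -0.074. In the HSC class, leaving out a library gave -1.17 to -0.16 for Trpc6, -0.67 to 0.014 for Pcp4l1 and -0.71 to 0.81 for Gm13986, and so turned the last 2 at 0.014 (without AML replicate 3), 0.81 (without AML replicate 3) and 0.05 (without PBS replicate 3). In MPP2 it gave -0.98 to -0.78, -1.41 to -0.96 and -1.16 to -0.22, in MPP3 -1.80 to -1.01 for Gm13986 and in MPP4 -1.62 to -1.16 for Trpc6. Thinned cells gave -0.70 for Pcp4l1 in MPP2 and -0.94 for Trpc6 in MPP4.

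In PBS libraries, Gm13986 in MPP4 against HSC missed the threshold with DESeq2 (-0.39), no filter (-0.35), thinned cells (-0.26), no library term (-0.45) and G1 cells (-0.28). Gm13986 in MPP2 against HSC did so in G1 cells (-0.69). Leaving out a library gave -0.54 to -0.20 for Gm13986 in MPP4 and -0.51 to 0.27 for Pcp4l1 in MPP3 against HSC, the latter turning without PBS replicate 3. Pcp4l1 in MPP2 against HSC passed with library-size scaling (-0.37) and thinned cells (-0.43) and turned in G1 cells (0.10), and in MPP3 it passed with library-size scaling (-0.44). In G2M against G1, Pcp4l1 missed the threshold with DESeq2 (-0.28), no filter (-0.30) and thinned cells (-0.47), and leaving out a library gave -0.74 to -0.58 for Trpc6 and -0.37 to -0.22 for Pcp4l1. Pairs of progenitor classes near 0 turned, for Pcp4l1 in MPP3 minus MPP2 with library-size scaling (-0.071), no filter (-0.048) and G1 cells (-0.21), with values between -0.23 and 0.34 when a library was left out. They turned for Trpc6 in MPP4 minus MPP2 with library-size scaling (0.16) and thinned cells (0.075), with values between -0.053 and 0.043 when a library was left out, in MPP3 minus MPP2 with thinned cells (0.085), and in MPP4 minus MPP3 with thinned and G1 cells (-0.010 and -0.0027). Gm13986 in MPP3 minus MPP2 turned in G1 cells (-0.26). The cause of these changes was not tested. Thinned cells gave no phase value for Gm13986, which fell below the filter. Counts of 3 or 4 UMIs set the HSC values of AML replicate 1.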
